A study of Mus musculus with 6 samples.

Results

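Blood monocytes enter tissues and can replace or join the macrophages that live there. Classical monocytes leave the bone marrow through the chemokine receptor CCR2, whereas non-classical monocytes patrol the vessel wall with the fractalkine receptor CX3CR1 and the integrin LFA-1 and depend on the sphingosine-1-phosphate receptor S1PR5 to reach the blood. The peritoneal cavity holds large, long-lived macrophages marked by the transcription factor GATA6, and a smaller population that is renewed from monocytes and carries more MHC class II. Described here are 9 genes typical of blood or recently recruited monocytes, in peritoneal macrophages (PMs) of lupus-prone and control mice. They are the receptors S1pr5, Ccr2 and Cx3cr1, the integrin chain Itgal, the surface proteins Cd52 and Treml4, the plasma protein gene Hp, the actin-binding protein gene Coro1a and the peptidase gene Ace. They were 9 of 32879 genes with a matched RefSeq record, and 7 of them were among the 10505 genes that passed the filter on low counts. The genes were chosen by their known use as monocyte markers and by their read counts in these same groups, whose difference was already known, so the differences below are a description of the libraries and support nothing on their own. Adjusted p-values are those of the fit over all genes and are printed for these genes in the same sense.

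RNA of sorted PMs was sequenced from 3 control and 3 diseased-BWF1 mice. Each library came from 1 mouse. Control animals were female F1 offspring of New Zealand white and BALB/c parents, aged 33, 33 and 30 weeks. The diseased-BWF1 mice were female F1 offspring of New Zealand black and New Zealand white parents with established proteinuria, aged 31, 31 and 34 weeks. The groups share the New Zealand white parent. Disease and the remaining parental strain, which is New Zealand black or BALB/c, differ between them together and cannot be told apart. The sort took F4/80+ and CD11b high cells, a gate that monocyte-derived macrophages can also enter, and the sources used here report no treatment of the mice. In such bulk samples a change in the share of a cell type and a change in the RNA of each cell cannot be told apart.

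Total counts ranged from 3629901 to 5003360 per mouse, and 89.1% to 93.0% of them fell on matched genes. A count of 3 in a library corresponds to 0.652 to 0.888 CPM (counts scaled to a common total on genes), a floor that covers counting error only. The libraries carried the markers of large PMs, with normalized counts of Gata6 at 374 ± 73.5 in control and 366 ± 90.7 in diseased-BWF1 mice (SD, n = 3 per group). The mice numbered 1 stood apart in each group. The summed normalized counts of the MHC class II genes H2-Aa, H2-Ab1 and H2-Eb1 with Cd74 were 3079 in control mouse 1 against 380 and 311 in the other control mice. They were 2832 in diseased-BWF1 mouse 1 against 536 and 374 in the others of that group. Results are therefore also given without both mice numbered 1, an alternative chosen after seeing the data.

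The gene with the widest difference among the tested members was Cd52, which encodes a very short glycoprotein anchored to the membrane of lymphocytes and monocytes by a lipid. Its coding sequence is shown because nearly the whole of this small protein is a signal peptide and an anchor signal. It has 225 bases and 74 codons before the stop codon, and lies in 2 exons on the minus strand at chr4:134093727-134094984 (GRCm38, GENCODE transcript), with the start and stop codons in capitals.
Cd52 coding sequence: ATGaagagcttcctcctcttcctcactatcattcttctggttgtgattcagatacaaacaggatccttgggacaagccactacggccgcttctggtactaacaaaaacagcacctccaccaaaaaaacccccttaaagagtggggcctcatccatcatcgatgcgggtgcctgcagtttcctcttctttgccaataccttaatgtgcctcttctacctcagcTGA

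Cd52 (chromosome 4, 134093538 to 134095073, GRCm38.p6) had 10.8, 8.24 and 13.7 normalized counts in control mice 1 to 3 and 125.1, 132.0 and 98.7 in diseased-BWF1 mice 1 to 3. Every diseased-BWF1 mouse lay far above every control mouse, and the control values rested on 13, 8 and 12 reads. The log2 fold change, here always diseased-BWF1 against control, was 3.43 (SE 0.25, edgeR adjusted p = 0.00304). Cd52 passed the call, an adjusted p under 0.05 with a fold change of at least 1.5, whichever single mouse was left out, but not without both mice numbered 1 (log2 fold change 3.38, adjusted p = 0.0910). Of the 440 windows of 75 bases in the 514-base transcript that holds this coding sequence, 0 occur in a transcript of another gene. Over all GENCODE transcripts of Cd52, 6.84% of 1111 windows also occur in a transcript of Crybg2.

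S1pr5 (chromosome 9, 21242917 to 21248443), the sphingosine-1-phosphate receptor of patrolling monocytes and natural killer cells, had the least spread between mice of the members. Its normalized counts were 209.4, 170.0 and 180.6 in control mice and 455.0, 508.8 and 514.9 in diseased-BWF1 mice. The groups did not overlap, and within a group the highest mouse was at most 1.23 times the lowest. The log2 fold change was 1.39 (SE 0.13, adjusted p = 0.00735). S1pr5 lost its call without control mouse 2 (adjusted p = 0.0532) and without both mice numbered 1 (log2 fold change 1.53, adjusted p = 0.0963).

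The other tested receptors of sphingosine-1-phosphate were not called. S1pr1, the receptor by which lymphocytes leave lymph nodes, had 263 normalized counts per kilobase of record in control and 201 in diseased-BWF1 mice, against 74.7 and 197 for S1pr5 (log2 fold change of S1pr1 -0.39, SE 0.18, adjusted p = 0.417). S1pr5 thus stood below S1pr1 in control mice and near it in diseased-BWF1 mice. S1pr2 averaged 39.98 and 38.4 normalized counts, S1pr4 averaged 12.8 in each group, and S1pr3 had 0 counts in all 6 libraries.

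Hp (chromosome 8, 109575128 to 109579172) encodes haptoglobin, the plasma protein that binds free haemoglobin and is also made by myeloid cells. It had 188.7, 160.7 and 280.0 normalized counts in control mice and 729.0, 741.4 and 1018 in diseased-BWF1 mice. The groups were well apart, with mouse 3 the highest in each. The log2 fold change was 1.98 (SE 0.25, adjusted p = 0.0192). With 1 mouse left out at a time, Hp passed the call only without control mouse 3 (adjusted p = 0.0182), and the adjusted p was 0.0504 to 0.0816 without any other mouse. Without both mice numbered 1 the log2 fold change was 1.98 (adjusted p = 0.201). Per kilobase of record, Hp was the most abundant member in each group, with 156 ± 46.4 normalized counts in control and 617 ± 121 in diseased-BWF1 mice (SD, n = 3). Cd163, the receptor that clears haptoglobin bound to haemoglobin, overlapped between the groups, since diseased-BWF1 mouse 3 had 1585 counts against 241 and 135 in the others of its group.

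Coro1a (chromosome 7, 126699774 to 126704816) encodes coronin-1A, an actin-binding protein of blood cells. It had 17.4, 11.3 and 5.72 normalized counts in control mice and 53.1, 55.9 and 83.6 in diseased-BWF1 mice. The control values were low and uneven, with 21, 11 and 5 reads, yet all were below the lowest diseased-BWF1 mouse. The log2 fold change was 2.43 (SE 0.39, adjusted p = 0.0389). The call was lost whichever single mouse was left out (adjusted p = 0.0645 to 0.141) and without both mice numbered 1 (log2 fold change 2.99, adjusted p = 0.186).

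None of its tested paralogs was called by edgeR, and Coro1b, Coro1c and Coro7 were more abundant than Coro1a in each group. Coro1b averaged 926 and 741 normalized counts (log2 fold change -0.33, SE 0.12, adjusted p = 0.282). Coro1c averaged 1103 and 993, and Coro7 averaged 225 and 239. Coro2a, chosen after its values were seen, averaged 19.1 in control and 4.01 in diseased-BWF1 mice and did not pass the edgeR call (log2 fold change -2.24, adjusted p = 0.0730), whereas DESeq2 called it lower (adjusted p = 0.0372).

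Ace (chromosome 11, 105967948 to 105989964) encodes the angiotensin-converting enzyme, a peptidase of the renin-angiotensin system that is also found on non-classical monocytes. It had 29.0, 38.1 and 27.4 normalized counts in control mice and 63.5, 205.2 and 96.7 in diseased-BWF1 mice. The groups did not overlap, but diseased-BWF1 mouse 2 was more than 3 times mouse 1 of its group. The log2 fold change was 1.94 (SE 0.44, adjusted p = 0.103), which did not pass the edgeR call, and DESeq2 called Ace higher (adjusted p = 0.00248). Without diseased-BWF1 mouse 2 the log2 fold change was 1.34 (adjusted p = 0.128). Transcripts of the angiotensin precursor gene Agt and the receptor gene Agtr1a had 0 counts in all 6 libraries.

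Itgal (chromosome 7, 127296139 to 127335137) encodes the alpha L chain of LFA-1, which binds ICAM proteins on the vessel wall. Its normalized counts were 99.3, 42.2 and 41.1 in control mice and 85.3, 179.8 and 112.9 in diseased-BWF1 mice. Control mouse 1 stood above diseased-BWF1 mouse 1, so the groups overlapped, and control mouse 1 was also the control mouse with the high MHC class II counts. Diseased-BWF1 mouse 1, which had the high MHC class II counts of its own group, had the lowest Itgal value of that group. The log2 fold change was 1.02 (SE 0.41, adjusted p = 0.351) with all mice and 1.79 (adjusted p = 0.204) without both mice numbered 1. Whether the Itgal counts of control mouse 1 are linked to its MHC class II counts was not tested. Itgb2, the beta chain that LFA-1 shares with CD11b, averaged 10668 ± 707 and 9712 ± 1318 normalized counts (SD, n = 3 per group, log2 fold change -0.14, adjusted p = 0.758). The ligand gene Icam2 averaged 1496 and 1023 (log2 fold change -0.55, adjusted p = 0.198).

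The defining receptors of the monocyte subsets were close to the limit of detection. Ccr2 (chromosome 9, 124101918 to 124109140) had 13, 8 and 2 counts in control mice and 24, 6 and 31 in diseased-BWF1 mice. The groups overlapped, and diseased-BWF1 mouse 2 lay among the control mice (log2 fold change 1.43, SE 0.69, adjusted p = 0.441). Of the 31 counts in diseased-BWF1 mouse 3, 20 lay on a predicted record that had 0 counts in every other mouse, and the log2 fold change was 0.88 on curated records alone. The ligand gene Ccl2 had at most 2 counts except in diseased-BWF1 mouse 1, which had 10.

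Cx3cr1 (chromosome 9, 120048683 to 120068296) had 4, 4 and 3 counts in control mice and 4, 1 and 9 in diseased-BWF1 mice, below the filter on low counts. The groups overlapped, and at this depth no difference was detectable (log2 fold change 0.32, SE 0.76, adjusted p = 0.900 in the fit without the filter). Treml4 (chromosome 17, 48264200 to 48275607), a TREM-like receptor of non-classical monocytes and some macrophages, had 0 counts in every control mouse and 1, 2 and 6 in the diseased-BWF1 mice. Against a floor of 3 counts over the control group, the 9 pooled counts of the diseased-BWF1 group correspond to a 3.10-fold higher level. That value is not a lower bound, because it takes the 9 counts as exact and 6 of them came from mouse 3. The edgeR fit without the filter gave an adjusted p of 0.307. Its chromosomal neighbour Trem1, an activating receptor of myeloid cells whose gene ends 17273 bases before it, had 6.62, 4.12 and 5.71 normalized counts in control mice and 20.9, 26.4 and 61.5 in diseased-BWF1 mice. Trem1 did not overlap between the groups and did not pass the edgeR call (log2 fold change 2.67, SE 0.52, adjusted p = 0.0686), while DESeq2 called it higher (adjusted p = 0.00304).

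**Figure D1:**
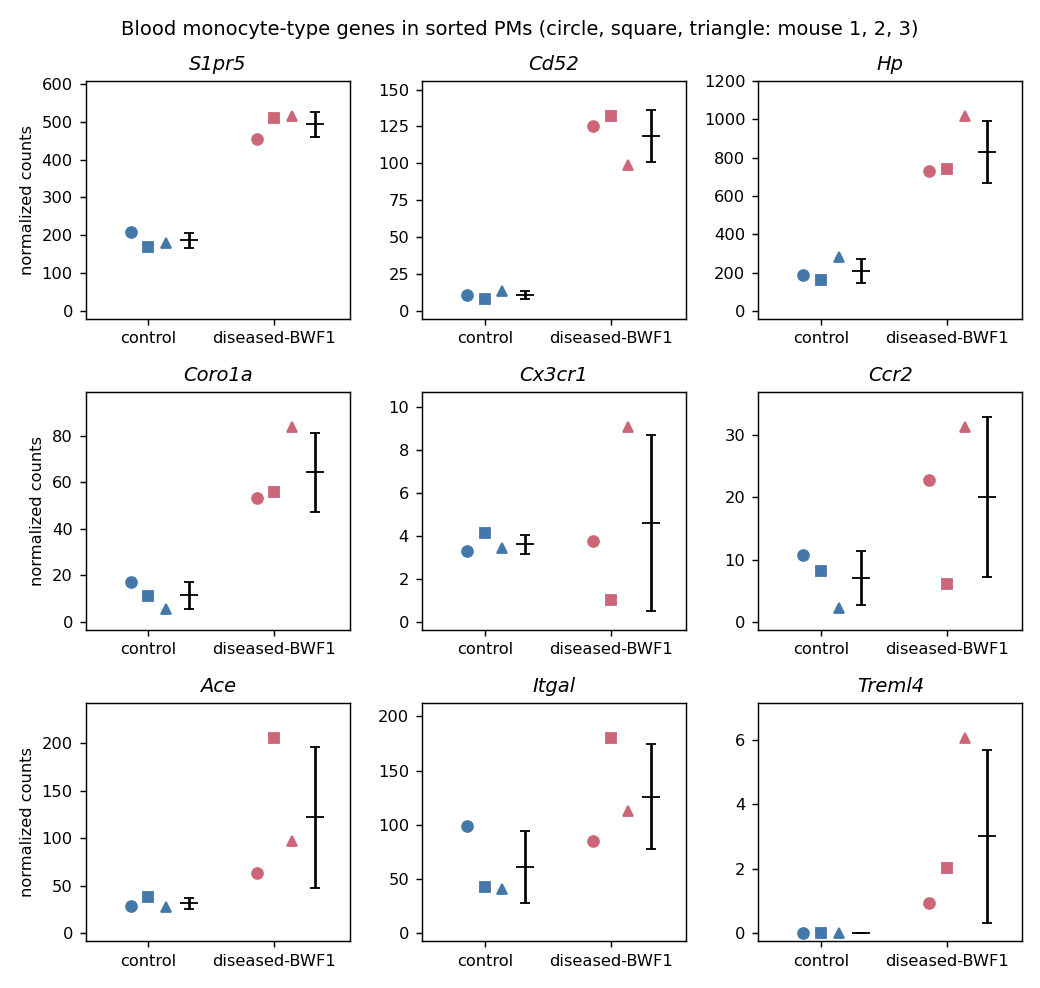
Normalized counts of the 9 genes in each of the 6 mice, on a linear axis for each gene, with the mean and SD of each group of 3 mice as a black bar. The groups do not overlap for S1pr5, Cd52, Hp, Coro1a, Ace and Treml4 and overlap for Itgal, Ccr2 and Cx3cr1.

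Of the 7 tested members, 4 were called higher in diseased-BWF1 mice by edgeR and 0 lower. Over all tested genes, 0.4% were called higher and 0.819% lower, and 1.22% in either direction. DESeq2 called 5 of the 7 higher and 0 lower, against 1.27% and 2.28% of all tested genes. In 5 of the 7 every diseased-BWF1 mouse was above every control mouse, against 9.81% of all tested genes, and in 0 every control mouse was above, against 11.1%. All 7 had a log2 fold change above 1, as did 2.48% of all tested genes. Its median was 1.94 over the 7 and 0.0053 over all tested genes. A member that passed the filter could do so through its diseased-BWF1 libraries alone, and 2 of the 9 did not pass it. Since the genes were put forward from this contrast, these shares describe the choice.

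Expressed per kilobase of record, the levels in diseased-BWF1 mice ran from Hp at 617 normalized counts through Cd52 at 231 ± 34.2 and S1pr5 at 197 ± 13.2 to Coro1a at 38.7 ± 10.2 (SD, n = 3). Cd52 and S1pr5 did not differ beyond their spread in that order. Ace at 24.8 ± 15.1 and Itgal at 24.1 ± 9.30 also did not differ beyond their spread, and Ccr2, Treml4 and Cx3cr1 followed at 6.68, 3.71 and 1.23. In control mice Hp at 156 and S1pr5 at 74.7 led, Cd52 stood at 21.2, and every other member was at or below 11.7.

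The same monocyte lists held 21 genes besides the members, of which 16 were tested. These lists too were chosen with earlier results of these data known. Of these 16, 2 were called higher, among them Pglyrp1, and 0 were called lower, against 0.4% and 0.819% of all tested genes. Their log2 fold changes had a median of 0.52, with 13 of 16 above 0 against 50.9% of all tested genes. DESeq2 called 4 of the 16 higher, adding Thbs1 and Nr4a1, against 1.27% of all tested genes. In 6 of the 16 the diseased-BWF1 mice were all above the control mice, against 9.81% of all tested genes.

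Pglyrp1, which encodes a secreted protein that binds bacterial peptidoglycan, had 9.10, 7.21 and 8.001 normalized counts in control mice and 73.0, 114.8 and 45.3 in diseased-BWF1 mice (log2 fold change 3.23, SE 0.40, adjusted p = 0.0192). Its call was lost without control mouse 1, 2 or 3 or diseased-BWF1 mouse 1 (adjusted p up to 0.0966) and without both mice numbered 1 (log2 fold change 3.36, adjusted p = 0.204).

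Genes of the lists that define the classical monocyte were nearly absent or were not called. Ly6c2, which encodes the surface antigen used to tell the subsets apart, had 1 count in control mouse 1 and 0 in the other 5 libraries, and Chil3 had at most 1 count in any library. Fn1, the fibronectin gene, was among the most abundant transcripts, at 207459 ± 46141 and 257753 ± 8369 normalized counts (SD, n = 3 per group), and was not called (log2 fold change 0.31, adjusted p = 0.587). F13a1 averaged 2706 and 2012 (log2 fold change -0.44, adjusted p = 0.577). Thbs1, the thrombospondin gene, ranged from 448 to 2292 in control mice and from 5505 to 13597 in diseased-BWF1 mice (log2 fold change 2.86, SE 0.65, adjusted p = 0.103).

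Among genes of the non-classical list, Nr4a1, the transcription factor needed for the survival of that subset, was chosen after its values were seen. It had 38.1, 58.7 and 12.6 normalized counts in control mice and 142.2, 151.3 and 88.7 in diseased-BWF1 mice, which did not overlap (log2 fold change 1.79, SE 0.46, adjusted p = 0.149, DESeq2 adjusted p = 0.0120). Adgre4 averaged 1072 and 1334 (log2 fold change 0.31, adjusted p = 0.482), and Gngt2 averaged 597 and 627 (log2 fold change 0.06, adjusted p = 0.909). Of the 33 genes in the list of ligands, partners and paralogs of the members, 15 were tested, 0 were called in either direction by edgeR and the log2 fold changes had a median of -0.14. DESeq2 called 1 of the 15 higher and 1 lower, and 5 of the 15 had an unadjusted p under 0.05, as did 13.2% of all tested genes.

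**Figure D2:**
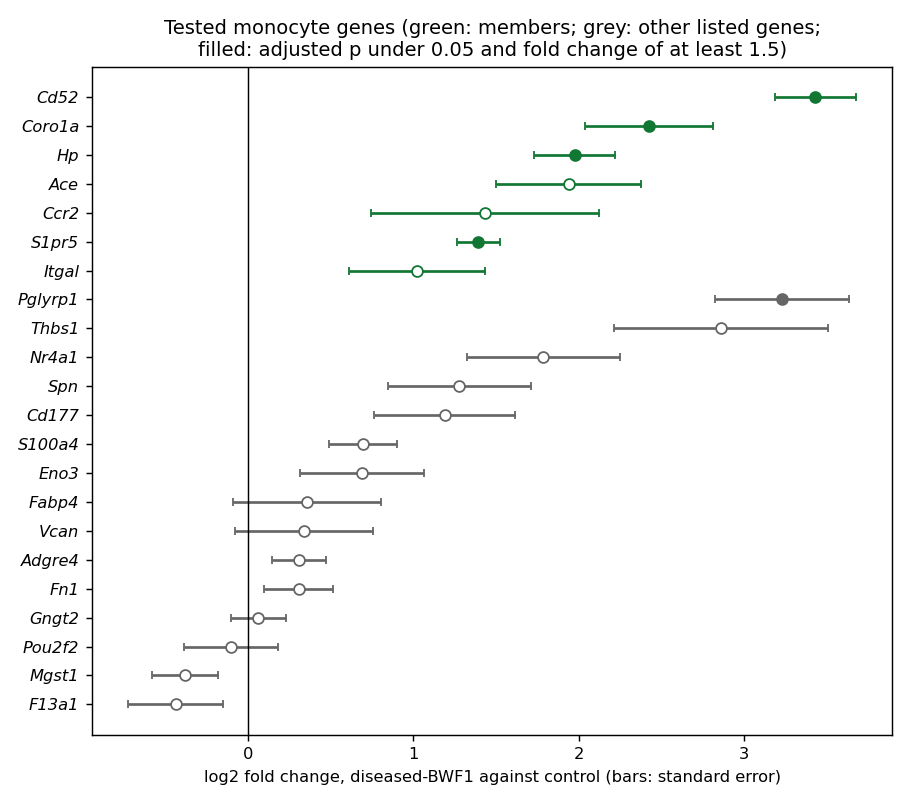
Log2 fold changes of diseased-BWF1 against control mice with their standard errors for the 7 tested members (green) and 15 of the 16 other tested genes of the monocyte lists (grey), with filled points for genes that passed the edgeR call. All 7 members lie above 0, from 1.02 for Itgal to 3.43 for Cd52, and the other genes run from -0.44 for F13a1 to 3.23 for Pglyrp1.

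Several members are also expressed by lymphocytes, natural killer cells and neutrophils, so the markers of these cells were read in the same libraries. Of the 6 natural killer cell markers, none passed the filter, and their summed level was 0.296 to 0.525 CPM in control mice and 0 to 0.266 CPM in diseased-BWF1 mice, with Klrd1 at 0 in all. The 6 T cell markers summed to 0.296 to 2.89 CPM in control and 1.33 to 3.33 CPM in diseased-BWF1 mice. The 6 matched B cell markers summed to 3.68 to 6.22 CPM in control and 1.07 to 3.33 CPM in diseased-BWF1 mice, from at most 28 counts in a library. None of the T or B cell markers passed the filter.

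Of the 12 neutrophil markers, 3 were tested and 0 were called by edgeR or had an unadjusted p under 0.05, with summed levels of 332 to 344 CPM in control and 232 to 343 CPM in diseased-BWF1 mice. Most of that sum was Csf3r, a receptor gene that macrophages express too, while Ly6g, Mpo and Retnlg had 0 counts in all libraries. The mast cell, eosinophil, platelet, red cell and mesothelial lists had no tested gene and at most 4.36 CPM in any library. The dendritic cell list summed to 44.3 to 82.9 CPM in control and 9.33 to 18.1 CPM in diseased-BWF1 mice. Most of that gap was Cd209a, a C-type lectin gene that fell, with 134.1, 213.3 and 278.9 normalized counts in control and 7.58, 18.3 and 5.04 in diseased-BWF1 mice (log2 fold change -4.34, SE 0.47, adjusted p = 0.0117). The call of Cd209a was lost without control mouse 2 or diseased-BWF1 mouse 1 (adjusted p up to 0.0708) and without both mice numbered 1 (log2 fold change -4.40, adjusted p = 0.0963).

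The 14 large PM markers were all tested and 0 were called by edgeR (4 had an unadjusted p under 0.05, against 13.2% of all tested genes, and DESeq2 called 2 lower), with log2 fold changes of median -0.11 and summed levels of 39017 to 40266 CPM in control and 37945 to 44865 CPM in diseased-BWF1 mice. In 5 of the 14 every control mouse was above every diseased-BWF1 mouse, against 11.1% of all tested genes. In 1 of the 14 every diseased-BWF1 mouse was above, against 9.81%. DESeq2 called 2.28% of all tested genes lower. Prg4 averaged 61975 and 76393 normalized counts and so weighed most in the summed level. The phagocytic receptor gene Timd4 averaged 4686 and 3258 normalized counts (log2 fold change -0.53, adjusted p = 0.334). The sorting marker genes Adgre1 (F4/80) and Itgam (CD11b) averaged 8287 against 7384 and 24201 against 26612. The 10 small PM markers summed to 1673 to 1985 CPM in control mice and to 1980, 610 and 566 CPM in diseased-BWF1 mice 1 to 3. In this sum diseased-BWF1 mouse 1 lay among the control mice and mice 2 and 3 far below. Retnla, which encodes a secreted protein of alternatively activated macrophages, had 3083, 426 and 52.4 normalized counts in these 3 mice and averaged 3257 in control mice (log2 fold change -1.46, SE 1.14, adjusted p = 0.645). The markers did not fall as a set. Of the 10, 8 were tested, 4 of these had a log2 fold change above 0, and the median was -0.08. Only 1 was called, Mrc1, the mannose receptor gene, which fell from 2230 ± 19.95 to 1062 ± 234 normalized counts (SD, n = 3 per group, log2 fold change -1.08, SE 0.18, adjusted p = 0.0440). The call of Mrc1 held only without diseased-BWF1 mouse 3 (adjusted p = 0.0454) when single mice were left out, and the adjusted p was up to 0.167 without any other mouse and 0.356 without both mice numbered 1. The part of any of these cell types in the members' differences was not tested.

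**Figure D3:**
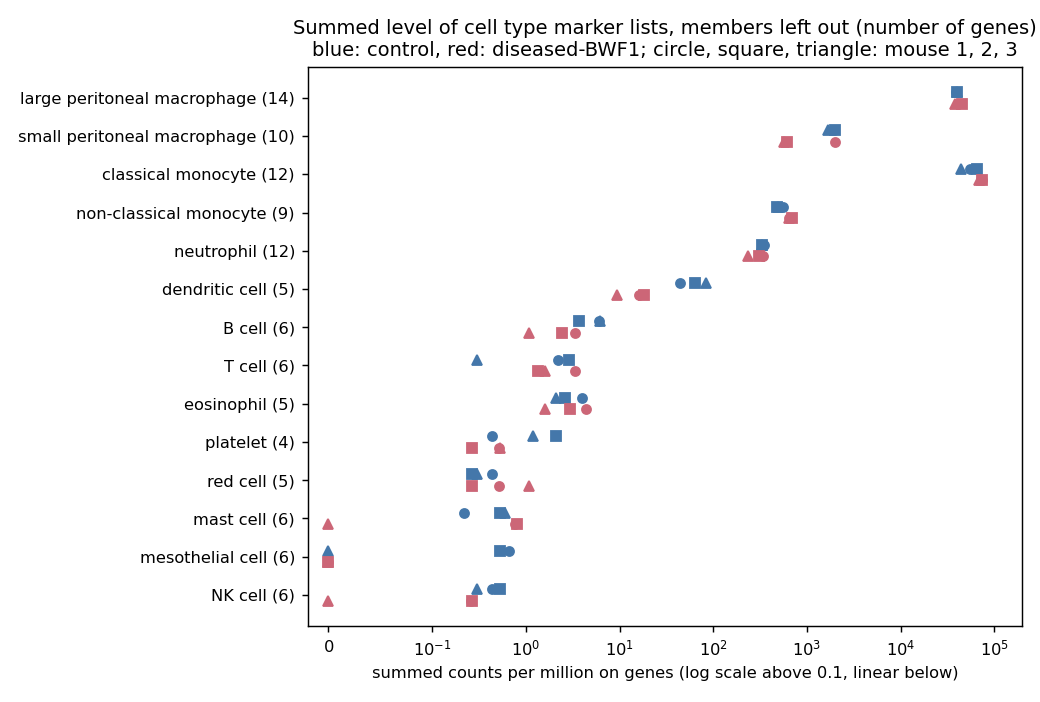
Summed CPM of each cell type marker list in each mouse, members left out, on an axis that is logarithmic above 0.1 and linear below, with the number of genes of each list in parentheses. Large PM markers stand between 37945 and 44865 CPM in every mouse, while natural killer, T and B cell markers stay at or below 6.22 CPM.

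The order of the mice inside each group was compared between the members, because 3 mice in a group are too few for a correlation. Among the 7 tested members control mouse 1 was the highest control for 4, control mouse 3 for 2 and control mouse 2 for 1. Control mouse 1 was the lowest for 0 of the 7. In the diseased-BWF1 group mouse 3 was the highest for 4 and mouse 2 for 3, while mouse 1 was the lowest for 5 and the highest for 0. Over all tested genes, diseased-BWF1 mouse 1 was the lowest of its group for 32.4% and the highest for 31.1%, and control mouse 1 was the highest of its group for 29.4%.

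The members nevertheless did not share an order. In control mice Coro1a, Ccr2 and Itgal were highest in mouse 1, whereas Hp and Cd52 were highest in mouse 3. In diseased-BWF1 mice Ace and Itgal peaked together in mouse 2, where Ccr2 was at its lowest, and Cd52 was lowest in mouse 3, where S1pr5, Hp, Coro1a and Ccr2 were highest. The spread also differed widely. The SD of log2 CPM within groups was 0.125 for S1pr5, at the 12.8 percentile of all tested genes, and 0.961 for Ccr2, at the 95.9 percentile. Coro1a, Ace and Itgal lay between the 85.0 and the 89.3 percentile.

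**Figure D4:**
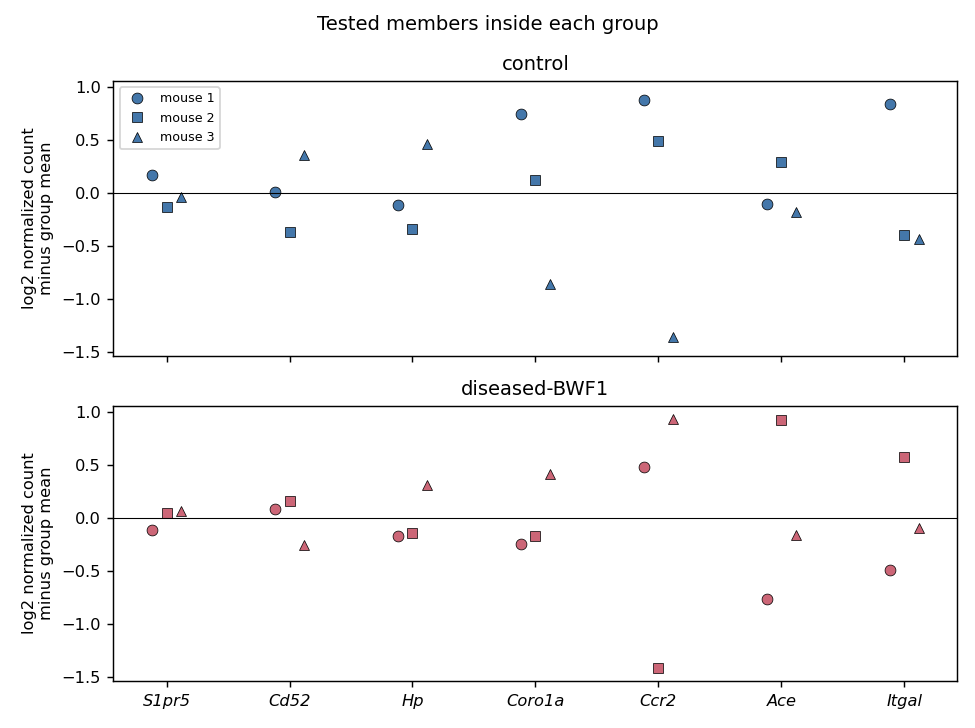
Deviation of each mouse from its group mean, in log2 normalized counts, for the 7 tested members, with a marker shape for each mouse. Diseased-BWF1 mouse 1 lies lowest for 5 of 7 members, and Ccr2 has the widest spread in each group.

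The profile over the 6 libraries was also compared with those of all other tested genes, by the root mean square difference between z-scored log2 CPM of a gene and the mean of the 7 tested members. The 5 nearest genes were Atf1 (0.132), Gm15448 (0.1405), Xlr4a (0.142), Vmn2r96 (0.143) and Chil1 (0.150). S1pr5 and Coro1a themselves stood at 0.144 and 0.185, Cd52 at 0.277, Hp at 0.339, Ace at 0.449, Itgal at 0.504 and Ccr2 at 0.716. This likeness is set mainly by the step between the groups, since a z-score removes its size. Atf1, for example, had a log2 fold change of 0.26 (adjusted p = 0.375), and Chil1 one of 8.50 (adjusted p = 0.00570).

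The counts of a gene were sums over its RefSeq records, which are its annotated transcripts. A sum does not depend on how reads were shared among the matched records of the same gene. It can still depend on sharing with transcripts of other genes or with unmatched records. S1pr5, Cd52 and Hp each had 1 record. Coro1a had 94.8% of its counts on 1 of its 4 records. The counts of Ace were shared almost equally by a pair of curated records. The second of these held 22.9%, 56.8% and 12.5% of the counts in control mice and 61.2%, 48.0% and 56.3% in diseased-BWF1 mice. The shares overlapped, control mouse 2 lying among the diseased-BWF1 mice, and in control mice they rested on 35, 37 and 24 counts. Itgal had counts on 5 records. All 120 counts of control mouse 1 lay on 1 of them, and this record held 29.3% and 88.9% of the counts in the other control mice and 22.6% to 60.0% in diseased-BWF1 mice.

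**Figure D5:**
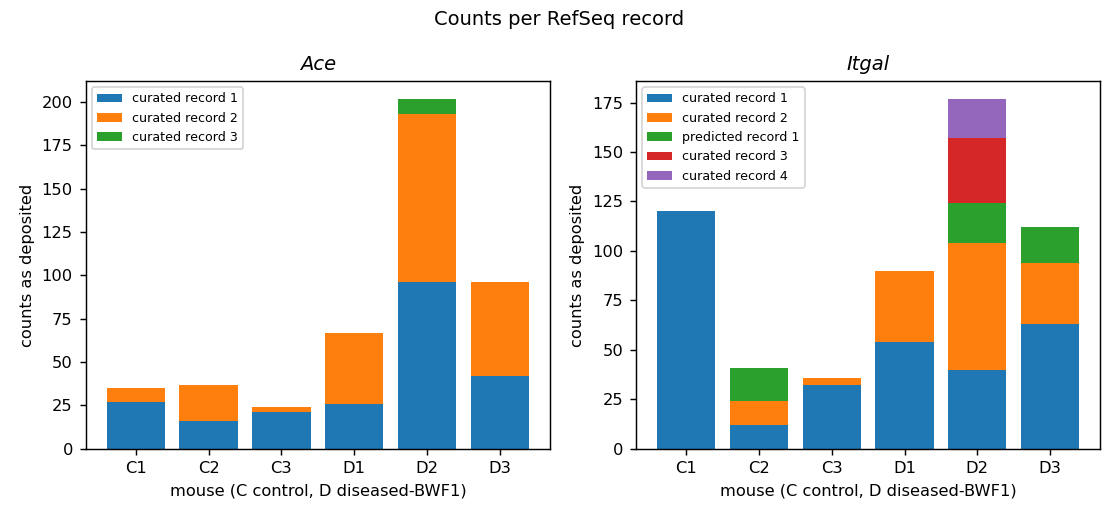
Counts as deposited for each RefSeq record of Ace and Itgal in each mouse, stacked, with control mice C1 to C3 and diseased-BWF1 mice D1 to D3. In mouse C1 all 120 Itgal counts lie on curated record 1, and in mouse D2 the 177 counts are spread over 5 records.

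The members lie on 6 chromosomes, and the neighbouring genes were read as well. Coro1a and Itgal are 591323 bases apart on chromosome 7, and Cx3cr1 and Ccr2 are 4033622 bases apart on chromosome 9. Of the 18 nearest tested genes on each side of the 9 members, 0 were called by edgeR, and Sh3bgrl3 next to Cd52 had an adjusted p of 0.0614 (log2 fold change 0.66, mean normalized counts 367 and 583). Kcnh6, which follows Ace, averaged 229 and 125 normalized counts (log2 fold change -0.88, adjusted p = 0.0730). Ccr1, the chemokine receptor gene before Ccr2, averaged 1895 against 1584 normalized counts (log2 fold change -0.27, adjusted p = 0.509).

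The promoters of S1pr5, Coro1a and Ace are shown because these members passed the filter, did not overlap between the groups and have an entry in the RefSeq promoter set (GRCm38.p6). Coro1a and Ace have a second entry each, and the one at the outer end of the gene is given. Each sequence is the 250 bases before the start site, on the strand of the gene. Capitals mark matches on either strand to CCNCNCCC, a motif of the KLF type, and in Ace also the TATA box letters TATAAA, here on the opposite strand 31 bases before the start.
S1pr5 promoter, minus strand, chr9:21248444-21248693: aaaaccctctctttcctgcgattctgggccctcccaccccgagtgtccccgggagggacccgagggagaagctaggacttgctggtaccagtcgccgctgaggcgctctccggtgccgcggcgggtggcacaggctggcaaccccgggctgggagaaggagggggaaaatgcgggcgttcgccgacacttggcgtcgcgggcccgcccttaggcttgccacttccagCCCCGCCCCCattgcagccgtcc
Coro1a promoter, minus strand, chr7:126704817-126705066: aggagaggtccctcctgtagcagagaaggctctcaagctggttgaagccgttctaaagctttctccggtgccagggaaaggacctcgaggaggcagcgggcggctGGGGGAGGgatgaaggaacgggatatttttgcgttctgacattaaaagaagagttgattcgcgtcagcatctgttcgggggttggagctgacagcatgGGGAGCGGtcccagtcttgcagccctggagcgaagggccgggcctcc
Ace promoter, plus strand, chr11:105967698-105967947: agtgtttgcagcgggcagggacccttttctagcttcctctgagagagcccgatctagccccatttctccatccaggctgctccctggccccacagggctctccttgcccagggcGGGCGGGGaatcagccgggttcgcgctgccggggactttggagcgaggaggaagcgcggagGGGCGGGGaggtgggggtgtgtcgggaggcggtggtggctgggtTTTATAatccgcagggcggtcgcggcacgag

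The letters CCNCNCCC occurred in 4 of the 8 entries, which cover 6 of the members, and in 45.9% of 32851 promoters of the same length, and TATAAA in 1 of 8 entries and 12.4% of all. The NR4A response element AAAGGTCA, the PU.1 type motif GAGGAAGT and the C/EBP type motif TTGCNNAA occurred in 0 of the 8 entries, and in 1.34%, 2.44% and 9.56% of all promoters. The GC content of the windows was 69.2% for S1pr5, 67.2% for Ace and 58.8% for Coro1a, against a median of 52.4% over all. Cd52, Hp and Itgal have no entry in the set.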

How the data were processed

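The authors deposited whole-number counts per RefSeq record for each mouse, with no normalization. The sample labels name Salmon 0.8.0, DESeq2 and GRCm38.p6 without their roles, so the counts may be rounded estimates. The 107193 records were matched to RefSeq genes (45754 by the same version, 40712 by another version), counts were summed per gene, and the 20727 unmatched records were left out. Diseased-BWF1 was compared with control in all 6 libraries with edgeR 4.0.16 (R 4.3.3; filterByExpr, TMM, quasi-likelihood test, no covariate, common dispersion 0.0543). P-values were adjusted by Benjamini-Hochberg over 10505 genes. A call needed an adjusted p below 0.05 and at least a 1.5-fold change. Normalized counts used the size factors of DESeq2 1.42.0, and genes below the filter were fitted without it. Alternatives included DESeq2, limma-voom (limma 3.58.1), other normalizations and filters, curated records, age, the replicate number and each mouse left out. The code was tested on simulated data.

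The members and gene lists were chosen with earlier results of these data known. All members were named, and from each list the called genes and up to 4 of the most abundant tested genes were eligible. Some genes that this rule covers are not reported here. Each library came from 1 mouse, as the paper states. Sequences were taken from RefSeq and GENCODE tables of GRCm38. Total counts of 3629901 to 5003360 per mouse set a floor of 0.652 to 0.888 CPM for 3 counts.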

Additional observations from a re-analysis of the deposited data

How the results depend on the processing

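Over the tested members the log2 fold change had a median of 1.94, which stayed between 1.66 and 2.08 under every alternative run. The end at 1.66 covers the 4 members tested with at least 10 counts in every library. The end at 2.08 covers the 6 members tested without both mice numbered 1. Where all 7 were tested, the median was 1.76 (limma-voom) to 2.06 (without diseased-BWF1 mouse 1). None of the 7 tested members reversed its direction, and Cx3cr1 and Treml4 had a value only without the filter. The number of genes called moved from 128 to 372 with DESeq2, 259 without the filter, 84 with at least 10 counts in every library, 16 on curated mRNA records alone and 6 without both mice numbered 1, and to 21 to 51 with 1 mouse left out. Of the 128 genes, 128 were among the 372 of DESeq2. The members called, 4 at first, were 2 with at least 10 counts (4 tested), 2 on curated records, 0 without both mice numbered 1 and 1 to 3 with 1 mouse left out. The other monocyte genes called, 2 at first, were 4 with DESeq2, 4 without the filter, 1 with at least 10 counts, 1 with limma-voom, 1 on curated records, 0 without both mice numbered 1 and 0 to 3 with 1 mouse left out. Where both mice numbered 1 were left out, edgeR called 0 members with 2 mice per group, and 902 of all genes had an unadjusted p under 0.05. The cause was not tested, except that fewer mice or genes enter several of these fits.

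Mice of the same number are different animals. The deviations of same-numbered mice from their group means correlated at 0.117, 0.00556 and 0.157, and those of differently numbered mice at -0.144 to 0.0573. Whether mice of the same number shared a batch or a sort is not given in the labels and was not tested. With the replicate number as a block, edgeR called 38 genes (18 higher, 20 lower), 3 members (Coro1a at adjusted p = 0.108) and 2 other monocyte genes. DESeq2 with the block, added after seeing the data, called 253 genes, 5 members and 4 other monocyte genes. Depth limits Ccr2, Cx3cr1 and Treml4, which had at most 31 counts in any library.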
